A study of Homo sapiens with 36 samples.

Results

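The genes described here are 10 transcription factors and cofactors that set B-cell and plasma-cell identity: PAX5, EBF1, BACH2, BCL6, IRF4, IRF8, PRDM1, XBP1, SPIB and POU2AF1. They were taken by gene symbol from a table of 37549 symbols, and all 10 were present and passed the filter on low counts in each fit. RNA sequencing was done on MEC1, JVM2 and EHEB, established human leukaemic B-cell lines, with 36 libraries in 12 groups of 3. Each line received the vehicle DMSO, 50 µM fludarabine (a purine analogue that blocks DNA synthesis), 5 µM ibrutinib (an inhibitor of the B-cell receptor kinase BTK) or 10 µM idelalisib (an inhibitor of the delta form of PI3K, also downstream of the receptor). MEC1 was exposed for 48 h, JVM2 for 72 h and EHEB for 96 h, so a difference between lines cannot be told apart from one of exposure time. In the paper's 72 h viability assays, the IC50 of each of these drugs in control MEC1 and JVM2 cells lay below the dose used here. EHEB was not given there. Whether reduced viability has a part in the changes below was not tested. Each line stands for 1 source of cells, and the labels speak of triplicates without saying that they were separate cultures, so the p-values measure only the spread between these libraries, which may be technical. The DMSO and fludarabine libraries of a line share a run of library numbers, whereas the ibrutinib and idelalisib libraries carry numbers of a later run. No DMSO library lies in that later run, so the number series and the effect of the inhibitors cannot be told apart. Below, single libraries are called the first, the second or the third of their group in the order of these numbers.

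PAX5 and EBF1 switch on and hold the B-cell programme, and POU2AF1 and SPIB act beside them on immunoglobulin and B-cell receptor signalling genes. BCL6 and BACH2 repress the plasma-cell programme in germinal-centre and activated B cells, whereas IRF4, PRDM1 (which encodes BLIMP1) and XBP1 drive the change to antibody-secreting plasma cells. IRF8 opposes IRF4 in part, and PRDM1 represses PAX5 and BCL6, so that the balance of the opposed factors is commonly read as the stage of the cell. In GRCh38 (GENCODE v44, strand in brackets) the B-cell factors lie as follows: PAX5 at chr9:36833269-37034268 (minus), EBF1 at chr5:158695920-159099916 (minus), POU2AF1 at chr11:111352255-111455630 (minus) and SPIB at chr19:50418938-50431314 (plus). The repressors are BCL6 at chr3:187721377-187745725 (minus) and BACH2 at chr6:89926528-90296843 (minus), and the factors of the plasma-cell change are IRF4 at chr6:391739-411443 (plus), PRDM1 at chr6:105993463-106109939 (plus) and XBP1 at chr22:28794555-28800597 (minus), with IRF8 at chr16:85899116-85922606 (plus). The counts are given per gene symbol, so no exon or start site is told apart.

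Levels are given as CPM, the count relative to the total of its library after TMM scaling over all 36 libraries, and changes as log2 fold changes ± SE from an edgeR quasi-likelihood fit. A gene was called at an adjusted p under 0.05 over all genes tested in that comparison. Total counts lay between 26590705 and 53538925 per library. The B-cell label held against its markers, since each of the 6 markers, CD79A among them, exceeded 1 CPM in every library and their sum was 1745 to 6178 CPM. The sum of 6 T-cell and NK-cell markers was 0.302 to 16.6 CPM, and that of 6 myeloid markers 6.59 to 69.6 CPM, most of it ITGAM. The 5 erythroid and platelet markers summed to at most 0.352 CPM, with PF4 at 0 throughout. In bulk RNA, fewer cells with a transcript and less transcript per cell cannot be told apart.

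The DMSO-treated lines differed in both B-cell and plasma-cell factors, without a single order of the lines across the factors. MEC1 had more BCL6 and IRF8 and little PRDM1 and BACH2, JVM2 had most EBF1, and EHEB had most PRDM1 and BACH2. Of the 10 factors, 2 were higher and 7 lower in MEC1 than in JVM2, where 30.1% of 17394 genes were higher and 33.7% lower. Against EHEB, MEC1 had 3 higher and 5 lower, beside 31.6% and 35.8% of all genes. EHEB against JVM2 gave 3 higher and 3 lower, beside 29.9% and 29.6% of all genes. The median log2 difference over the 10 factors was −0.65, −0.25 and 0.38 in these comparisons, and that over all genes tested was −0.02, −0.05 and 0.0030.

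PRDM1, the repressor that ends the B-cell programme, was ordered MEC1, JVM2, EHEB from low to high. Its DMSO libraries held 13.6, 13.8 and 10.3 CPM in MEC1, 53.6, 60.4 and 53.9 CPM in JVM2, and 332, 300 and 284 CPM in EHEB. No library of a line overlapped one of another line. The log2 difference was −2.16 ± 0.11 between MEC1 and JVM2 (edgeR adjusted p = 3.31e-07) and 2.47 ± 0.11 between EHEB and JVM2 (edgeR adjusted p = 2.57e-07). An exon of PRDM1 is reached by ATG5 on the opposite strand, and the strand used in counting is not given in the sources used here, so a share of its reads could belong to that gene.

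BCL6, the germinal-centre repressor, was instead highest in MEC1. MEC1 held 11.1, 12.8 and 11.7 CPM, JVM2 0.0901, 0.815 and 0.471 CPM, and EHEB 0.682, 0.643 and 0.97 CPM. MEC1 was higher than JVM2 by 4.64 ± 0.49 (edgeR adjusted p = 3.21e-05) and higher than EHEB by 3.92 ± 0.46 on the log2 scale (edgeR adjusted p = 6.23e-05), whereas EHEB and JVM2 overlapped and did not pass the test (0.73 ± 0.50, edgeR adjusted p = 0.242). The first JVM2 library was the lowest of its group at 3 counts. Without the second, the highest, the difference between EHEB and JVM2 became 1.39 (edgeR adjusted p = 0.0422).

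BACH2, which holds back PRDM1, was almost unread in MEC1, with 0, 6 and 3 counts in its DMSO libraries (9 in all). JVM2 held 3.75, 1.80 and 3.06 CPM and EHEB 10.2, 9.07 and 8.84 CPM. Low counts of the table pile up at steps of 8/3 of a count without all lying on them, and if 1 read is worth 8/3 counts the MEC1 sum is about 3 reads. On that scale the ratio of JVM2 to MEC1 was 44.6 with a 95% exact binomial interval of 14.9 to 219, and that of EHEB was 148 (interval 50.2 to 718). With each deposited count taken as a read they were 39.6 (20.6 to 87.4) and 131 (68.8 to 287.4). These intervals cover counting error only. EHEB exceeded JVM2 by 1.73 ± 0.37 on the log2 scale (edgeR adjusted p = 0.00338).

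IRF4, which raises PRDM1 and is needed for plasma cells, had the highest level per kb of exon in each line. Its DMSO libraries held 937, 1014 and 918 CPM in MEC1, 1898, 1935 and 1961 CPM in JVM2, and 2074, 1912 and 1840 CPM in EHEB. MEC1 was lower than JVM2 by a log2 difference of −1.02 ± 0.05 (edgeR adjusted p = 2.24e-07), and JVM2 and EHEB did not differ beyond their spread (0.03 ± 0.05, edgeR adjusted p = 0.665). Per kb, IRF4 stood at 160 ± 8.57 CPM in MEC1, 324 ± 5.32 in JVM2 and 326 ± 20.1 in EHEB (SD, n = 3). The next in MEC1 and EHEB was XBP1, the factor that enlarges the secretory apparatus, at 93.6 ± 7.36 and 97.3 ± 43.4 CPM per kb, and in JVM2 POU2AF1 at 102 ± 4.73. In MEC1 and EHEB the means of XBP1 and POU2AF1 exchange places when the longest transcript is used as the length, so their order depends on the length used. BACH2 and BCL6 were among the 3 lowest in each line, with 0.0065 and 1.99 CPM per kb in MEC1, 0.264 and 0.0773 in JVM2 and 0.861 and 0.129 in EHEB.

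**Figure D1:**
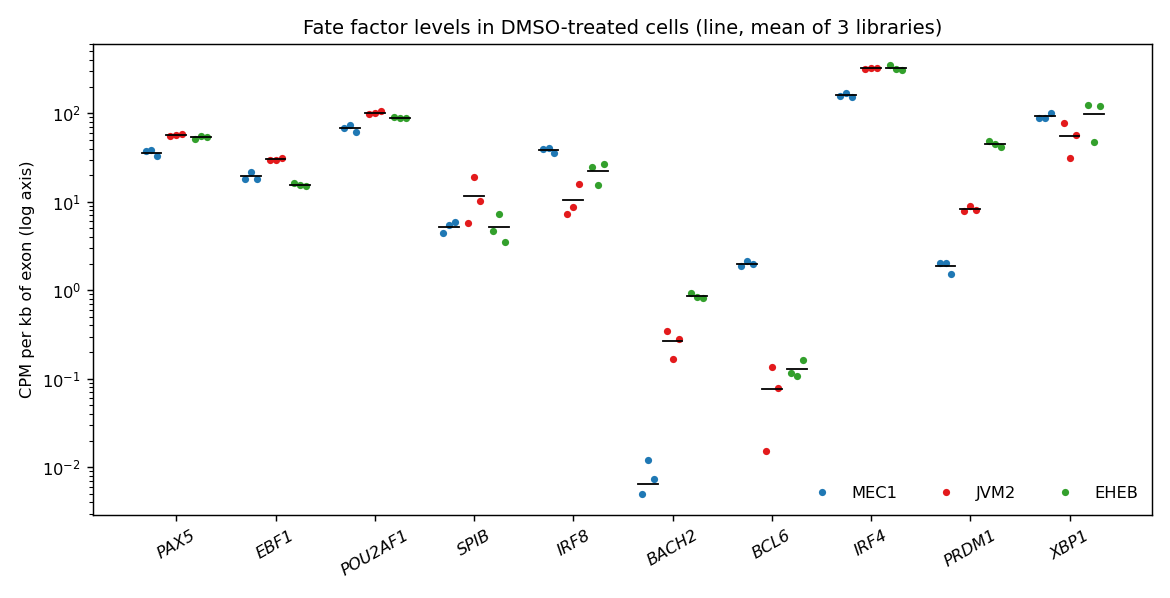
Level of each factor in DMSO-treated MEC1, JVM2 and EHEB, in CPM per kb of exon on a log axis, with a point per library and a line at the mean of 3. IRF4 stands highest in each line, and PRDM1, BCL6 and BACH2 are spread furthest between lines. A library at 0 (BACH2 in MEC1) is drawn at 0.005.

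Among the B-cell identity factors the differences were smaller. PAX5 had 355, 364 and 315 CPM in MEC1, 532, 539 and 554 CPM in JVM2, and 495, 532 and 514 CPM in EHEB, and MEC1 was below both (log2 −0.66 ± 0.05 and −0.60 ± 0.05). EBF1 averaged 123 ± 14.02, 191.3 ± 5.40 and 98.5 ± 3.90 CPM in MEC1, JVM2 and EHEB, and each pair of lines passed the test. POU2AF1, the octamer coactivator also called OBF-1, averaged 474 ± 38.6, 714 ± 33.1 and 625 ± 6.48 CPM, and each pair passed as well, the smallest difference being −0.17 ± 0.05 between EHEB and JVM2 (edgeR adjusted p = 0.019), which did not pass without the second or the third library of EHEB or the third of JVM2.

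IRF8, SPIB and XBP1 were less even within groups. IRF8 had 306, 321 and 278 CPM in MEC1, 56.9, 67.9 and 124 CPM in JVM2, and 194, 121 and 212 CPM in EHEB, and MEC1 exceeded JVM2 by 1.86 ± 0.30 on the log2 scale (edgeR adjusted p = 0.000509). Its difference between MEC1 and EHEB, 0.75 ± 0.29 (edgeR adjusted p = 0.0443), was lost with 5 of the 6 libraries left out in turn and was 0.54 without the second of EHEB. SPIB, an ETS factor close to PU.1, had 24.6, 82.4 and 44.02 CPM in JVM2 against 18.9, 23.2 and 25.3 in MEC1. Its difference between MEC1 and JVM2, −1.17 ± 0.41 (edgeR adjusted p = 0.0330), was −0.62 without the second library of JVM2 (edgeR adjusted p = 0.140), and that between EHEB and JVM2 went from −1.16 to −0.61. XBP1 passed in no pair of lines: EHEB held 374, 143.05 and 367 CPM and JVM2 236, 94.9 and 173 CPM, a difference of 0.83 ± 0.40 (edgeR adjusted p = 0.102), and 1.16 without the second library of EHEB (edgeR adjusted p = 0.0142) or 1.17 without the first of JVM2 (edgeR adjusted p = 0.0487). Pooled over the 12 groups, the SD of log2 CPM within a group was 0.56 for XBP1, 0.44 for SPIB and 0.41 for IRF8. It was 0.67 for BCL6 and 0.49 for BACH2, which have groups of few counts, and 0.27 for PRDM1. The lowest were 0.07 for IRF4, 0.08 for POU2AF1, 0.09 for PAX5 and 0.10 for EBF1. The median was 0.18 over the 14250 genes with a mean of at least 1 CPM.

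**Figure D2:**
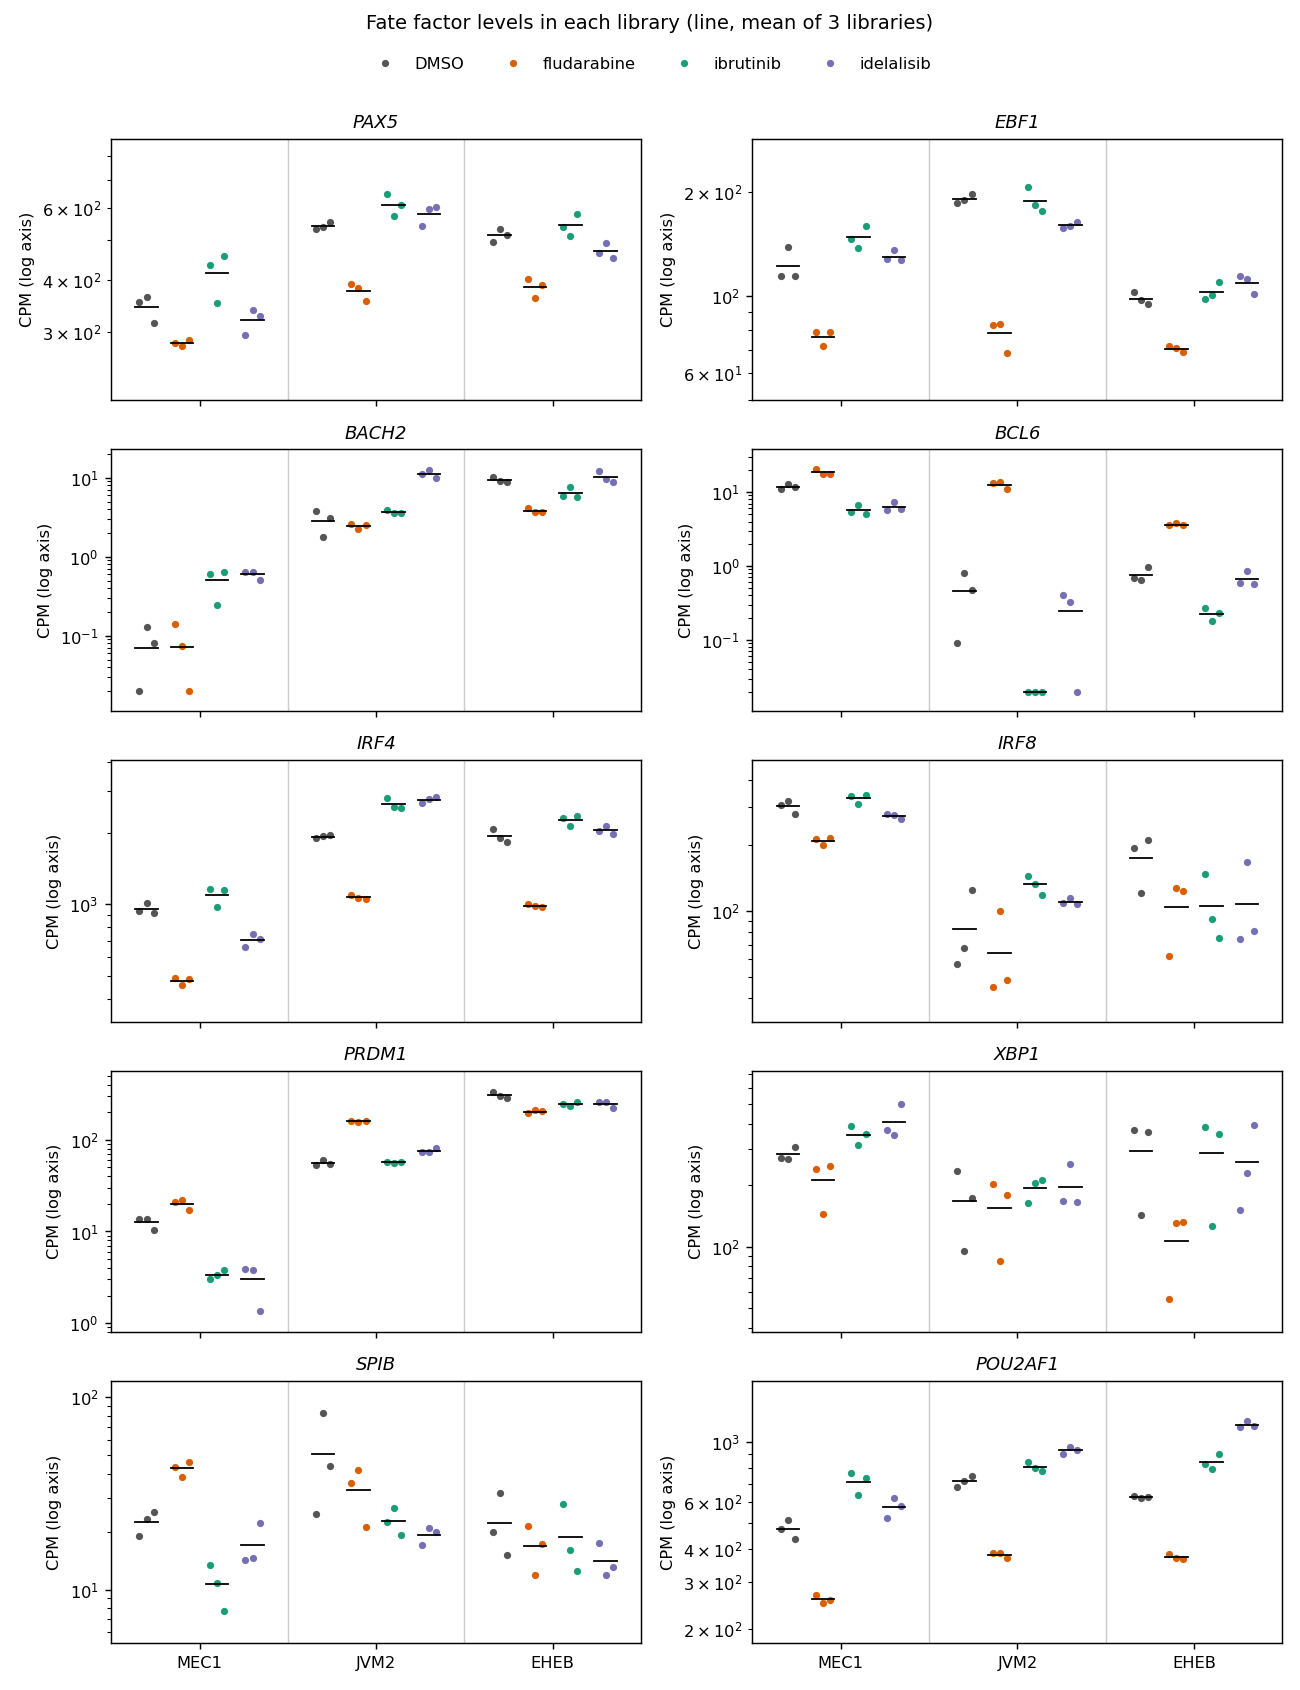
Level of each factor in all 36 libraries, in CPM on a log axis, by line and treatment, with a point per library and a line at the mean of 3. IRF4, POU2AF1, PAX5 and EBF1 fall with fludarabine in each line, BCL6 rises, and the libraries of XBP1, SPIB and IRF8 are widely spread in JVM2 and EHEB. Libraries at 0 are drawn at 0.02.

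Each drug changed 3 to 8 of the 10 factors within a line. With fludarabine, 2 rose and 5 fell in MEC1 (21.2% and 22.7% of 17516 genes), 2 rose and 4 fell in JVM2 (23.9% and 23.3% of 17508), and 1 rose and 6 fell in EHEB (18.4% and 19.2% of 17748). With ibrutinib, 5 rose and 3 fell in MEC1 (23.7% and 23.9% of all genes), 3 rose and 2 fell in JVM2 (14.5% and 15.0%), and 2 rose and 3 fell in EHEB (8.50% and 11.2%). With idelalisib, 3 rose and 3 fell in MEC1 (27.6% and 27.4%), 4 rose and 2 fell in JVM2 (21.6% and 22.6%), and 2 rose and 1 fell in EHEB (15.1% and 18.2%). The factors' median log2 fold change was −0.37, −0.47 and −0.63 with fludarabine in MEC1, JVM2 and EHEB, beside medians of 0.06, 0.06 and 0.02 over all genes. The 3 drugs share the DMSO libraries of their line, so their comparisons are not independent of each other.

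The balance of calls over all genes depends on the scaling. Without TMM the median change of all genes moved up with fludarabine, by 0.25 for MEC1, 0.20 for JVM2 and 0.11 for EHEB. The calls over all genes became 6052 higher and 2113 lower, 6155 and 2752, and 4228 and 2611. With TMM these were 3721 and 3973, 4183 and 4086, and 3259 and 3404. With ibrutinib the calls moved from 2531 higher and 2620 lower to 3259 and 1978 in JVM2 and from 1509 and 1990 to 2524 and 1334 in EHEB. With idelalisib they moved from 3779 and 3960 to 4651 and 3166 in JVM2 and from 2681 and 3232 to 3579 and 2431 in EHEB. Of the factors called against DMSO, none changed direction without TMM. Against DMSO the call was lost for PAX5 with fludarabine in MEC1 (−0.06, edgeR adjusted p = 0.632) and for PRDM1 and BACH2 with ibrutinib in EHEB (−0.19 and −0.41). In turn, 7 changes of the factors against DMSO that were not called with TMM passed without it.

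**Figure D3:**
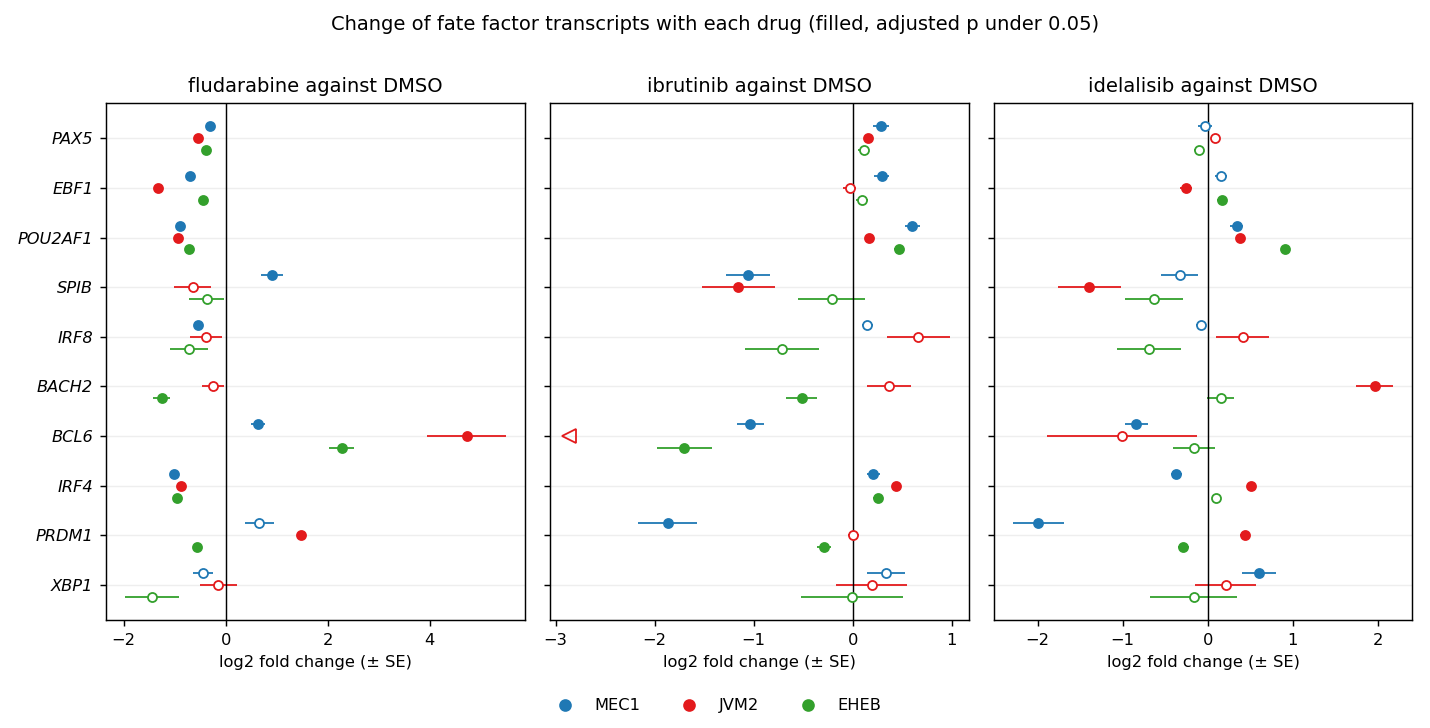
Log2 fold change against DMSO (± SE) of each factor with fludarabine, ibrutinib and idelalisib in MEC1, JVM2 and EHEB, with filled points for an adjusted p under 0.05. The open triangle is the bound for BCL6 in ibrutinib-treated JVM2, where no read was counted (log2 of −2.87), and BACH2 in MEC1 is left out because DMSO libraries held 9 counts in all. With fludarabine PAX5, EBF1, POU2AF1 and IRF4 are called below 0 and BCL6 above 0 in each line. IRF8 and XBP1 also lie below 0 in each line, called only for IRF8 in MEC1.

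The B-cell identity factors PAX5, EBF1 and POU2AF1 fell with fludarabine in each of the 3 lines. PAX5 went from 532, 539 and 554 CPM with DMSO to 392, 383 and 356 CPM in JVM2, a log2 change of −0.55 ± 0.04 (edgeR adjusted p = 1.60e-06), and changed by −0.38 ± 0.05 in EHEB and −0.31 ± 0.08 in MEC1. EBF1 libraries of JVM2 fell from 187, 190 and 197 CPM to 82.6, 83.4 and 68.6 CPM, a change of −1.32 ± 0.07 (edgeR adjusted p = 6.81e-08). The treated and vehicle libraries of both genes did not overlap in any line. The EBF1 change was −0.70 ± 0.07 in MEC1 and −0.45 ± 0.06 in EHEB, and it differed between lines (interaction, edgeR adjusted p = 2.09e-05).

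POU2AF1 took opposite directions with fludarabine and with the kinase inhibitors. In MEC1 it went from 475, 512 and 435 CPM with DMSO to 268, 250 and 256 with fludarabine, 770, 632 and 732 with ibrutinib and 522, 620 and 576 with idelalisib. The EHEB libraries held 631, 618 and 624 CPM with DMSO, 382, 368 and 367 with fludarabine, 829, 796 and 906 with ibrutinib and 1140, 1201 and 1145 with idelalisib. In both lines, as in JVM2, each group lay apart from the vehicle. The fludarabine change was −0.89 ± 0.08, −0.94 ± 0.04 and −0.71 ± 0.04 on the log2 scale in MEC1, JVM2 and EHEB, whereas the 6 inhibitor changes were all above 0, from 0.17 ± 0.04 (JVM2, ibrutinib, edgeR adjusted p = 0.0051) to 0.92 ± 0.05 (EHEB, idelalisib, edgeR adjusted p = 1.28e-07). POU2AF1 and PAX5 each have an exon reached by an opposite-strand gene in the annotation.

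With the inhibitors PAX5 and EBF1 changed by less than 0.30 in log2 units. PAX5 rose with ibrutinib in MEC1 (0.29 ± 0.08, edgeR adjusted p = 0.0147) and JVM2 (0.16 ± 0.04, edgeR adjusted p = 0.0185). The MEC1 libraries overlapped the vehicle, and the MEC1 call was lost without the third DMSO or the first or the third ibrutinib library and the JVM2 call without the first or the second DMSO or the first ibrutinib library. With idelalisib no PAX5 change passed, the values being −0.03, 0.09 and −0.11 in MEC1, JVM2 and EHEB. EBF1 rose with ibrutinib in MEC1 (0.29 ± 0.07), fell with idelalisib in JVM2 (−0.26 ± 0.07) and rose by 0.17 ± 0.06 with idelalisib in EHEB, where the adjusted p of 0.0489 (edgeR) went above 0.05 without the second or the third DMSO or the first or the second idelalisib library, any one of them.

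SPIB was called in 4 of the 9 comparisons, in both directions. With fludarabine it rose in MEC1, from 18.9, 23.2 and 25.3 to 43.3, 38.3 and 46.1 CPM (0.91 ± 0.22, edgeR adjusted p = 0.00568), and its values in JVM2 and EHEB were −0.64 ± 0.37 and −0.37 ± 0.34 (not called). With ibrutinib it fell in MEC1 to 13.4, 10.8 and 7.73 CPM (−1.06 ± 0.22, edgeR adjusted p = 0.00216). The JVM2 falls, −1.16 ± 0.37 with ibrutinib and −1.39 ± 0.37 with idelalisib, were taken against DMSO libraries of 24.6, 82.4 and 44.02 CPM. The ibrutinib value was −0.60 without the second DMSO library (edgeR adjusted p = 0.175) and lost its call with 5 of the 6 libraries left out, and the call for idelalisib kept its side of the threshold with each library left out (largest adjusted p 0.0436). An exon of SPIB is overlapped by a same-strand protein-coding gene, ENSG00000142539, so its counts may hold reads of that gene.

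IRF8, which promotes the germinal-centre stage, passed in 1 comparison. In MEC1 it fell with fludarabine from 306, 321 and 278 to 214, 200 and 217 CPM (−0.54 ± 0.06, edgeR adjusted p = 2.27e-05), without overlap. In the joint fit of 36 libraries this change did not pass (−0.51, edgeR adjusted p = 0.213). In JVM2 and EHEB its fludarabine values were −0.39 ± 0.32 and −0.71 ± 0.38, and the treated libraries overlapped the vehicle (44.7, 99.8 and 48.4 CPM in JVM2, and 62.5, 128 and 124 CPM in EHEB). The MEC1 change was not shown to differ from those (interaction, edgeR adjusted p = 0.832).

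BCL6 rose with fludarabine in all 3 lines and fell with ibrutinib in all 3. In JVM2 the DMSO libraries held 0.0901, 0.815 and 0.471 CPM and the fludarabine libraries 13.4, 13.7 and 10.9 CPM, a log2 change of 4.72 ± 0.77 (edgeR adjusted p = 0.000917). The ibrutinib libraries of JVM2 held 0 counts in each of 3, and the idelalisib libraries 15, 13 and 0 counts. Treated with fludarabine, JVM2 thus came to the level of DMSO-treated MEC1 (11.1 to 12.8 CPM), and with ibrutinib to no counted read. Taking 8 counts over the group as the limit that a count of 0 allows, BCL6 was at least 7.30-fold lower with ibrutinib than with DMSO in JVM2 (edgeR adjusted p = 0.0207 for the fitted change, which did not pass in limma-voom, 0.0816, nor without the second DMSO or the first ibrutinib library). That bound rests on 3, 33 and 20 counts in the DMSO libraries and was 4.603-fold without the second.

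In EHEB the BCL6 values were 0.682, 0.643 and 0.97 CPM with DMSO, 3.54, 3.82 and 3.57 with fludarabine and 0.271, 0.179 and 0.23 with ibrutinib. The log2 changes were 2.28 ± 0.25 (edgeR adjusted p = 2.50e-05) and −1.70 ± 0.27 (edgeR adjusted p = 0.00146), and neither group overlapped the vehicle. The ibrutinib libraries held 12, 6 and 10 counts (28 in all) against 96 in all with DMSO, so the size of that fall rests on few reads. In MEC1 the libraries held 11.1, 12.8 and 11.7 CPM with DMSO, 20.5, 17.6 and 17.5 with fludarabine, 5.33, 6.75 and 4.98 with ibrutinib and 5.69, 7.33 and 5.90 with idelalisib. The MEC1 changes of 0.63 ± 0.14, −1.03 ± 0.14 and −0.84 ± 0.14 were each called, again without overlap. In a joint fit of all 36 libraries the fludarabine and idelalisib changes in MEC1 did not pass (edgeR adjusted p = 0.168 and 0.0501). Idelalisib in JVM2 and EHEB gave −1.005 ± 0.89 and −0.16 ± 0.25, neither called. Opposite-strand genes reach exons of BCL6, so its low counts in JVM2 and EHEB could in part be theirs.

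BCL6 and PRDM1 had the widest range of group means of the 10 factors beside BACH2. The reference sequence around 1 of the 2 annotated start sites of each is printed, and the counts do not show which site was used. The stretches run from 120 bases before to 30 bases after the start, taken from RefSeq (GRCh38.p14), and capitals mark matches to the motifs searched. For BCL6 (chr3:187745439-187745588, minus strand) they mark TTCNNNGAA, a palindrome of the type bound by STAT factors and BCL6 itself, and for PRDM1 (chr6:106098821-106098970, plus strand) TGANTCA, the palindrome of the AP-1 type.
BCL6: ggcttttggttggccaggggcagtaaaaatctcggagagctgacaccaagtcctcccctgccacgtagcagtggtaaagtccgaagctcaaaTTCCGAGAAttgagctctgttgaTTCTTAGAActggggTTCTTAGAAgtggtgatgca
PRDM1: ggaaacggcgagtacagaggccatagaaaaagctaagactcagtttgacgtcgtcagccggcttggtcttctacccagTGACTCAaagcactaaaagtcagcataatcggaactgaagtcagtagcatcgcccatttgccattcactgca

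The BCL6 stretch holds 3 matches and its full 300-base window 4, and 7 of 35116 promoters of that length (0.0199%) hold 4 or more. The cutoff of 4 was taken from this window after the search, so that share is a description and no test. At least 1 match to TTCNNNGAA lies in 7.66% of promoters, and 1 to TGANTCA in 7.71%. The PRDM1 match lies 42 bases before the start, and the other BCL6 start site has a TGANTCA match 77 bases before it. The window of the other PRDM1 start site (chr6:106086086-106086385) has no match. RefSeq promoters were found for 9 of the 10 factors (13 start sites), and 7 of those start sites had no match to any of 10 motifs searched on both strands. The others searched were the octamer ATGCAAAT (1.77% of promoters), GAGGAAGT of the PU.1 type (2.59%), GAAANNGAA of the IRF type (8.11%), CCCNNGGG of the EBF type (19.1%), TGACGTG (1.97%), GGANTTTCC (1.64%), GNGAAAGT of the PRDM1 type (4.09%) and the E-box CACGTG (7.26%). A match describes letters in the window and no binding was measured here.

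BACH2 changed in different lines with different drugs. In JVM2 the libraries held 3.75, 1.80 and 3.06 CPM with DMSO, and 11.02, 12.7 and 9.95 with idelalisib, a log2 change of 1.96 ± 0.22 (edgeR adjusted p = 3.79e-05) without overlap. In EHEB they fell from 10.2, 9.07 and 8.84 to 4.17, 3.65 and 3.70 CPM with fludarabine (−1.25 ± 0.16, edgeR adjusted p = 0.000107) and to 5.81, 7.69 and 5.73 with ibrutinib (−0.52 ± 0.16, edgeR adjusted p = 0.0422). The EHEB ibrutinib groups did not overlap, but the call was lost with 5 of 6 libraries left out and in 4 of 9 alternatives. In MEC1 the sum rose from 9 counts with DMSO to 74 with ibrutinib and 75 with idelalisib, ratios of 8.14 (95% exact binomial interval 2.51 to 41.8) and 9.39 (2.90 to 48.3) at 8/3 counts a read, which cover counting error only. The fitted changes passed the test (edgeR adjusted p = 0.0206 and 0.0105), that with ibrutinib not without the first or the third DMSO library or the first or the third ibrutinib library. With fludarabine MEC1 held 8 counts in all, at the limit, and no fold is given. As for PRDM1, opposite-strand genes reach exons of BACH2, and their reads cannot be told apart here.

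IRF4 fell with fludarabine in each of the 3 lines. MEC1 went from 937, 1014 and 918 to 490, 456 and 485 CPM, JVM2 from 1898, 1935 and 1961 to 1096, 1063 and 1052 CPM, and EHEB from 2074, 1912 and 1840 to 1001, 984 and 973 CPM. The log2 changes were −1.02 ± 0.06, −0.88 ± 0.03 and −0.95 ± 0.05 (edgeR adjusted p from 4.07e-09 to 5.23e-07), spanning 0.14, and a difference between lines was not shown (interaction, edgeR adjusted p = 0.265).

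With idelalisib IRF4 went opposite ways. It fell in MEC1 to 660, 748 and 711 CPM (−0.37 ± 0.06, edgeR adjusted p = 0.000465) and rose in JVM2 to 2680, 2776 and 2850 CPM (0.51 ± 0.03, edgeR adjusted p = 3.62e-07), in both lines without overlap with the vehicle. The EHEB value was 0.10 ± 0.05 (edgeR adjusted p = 0.135), and the difference between lines passed (interaction, edgeR adjusted p = 7.96e-08). Ibrutinib raised IRF4 in JVM2 (0.44 ± 0.03) and EHEB (0.25 ± 0.05). In MEC1 the rise of 0.21 ± 0.06 (edgeR adjusted p = 0.0178) was lost without the first or the third library of either group.

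The line by drug interaction test passed for 39.1%, 33.6% and 45.7% of all genes with fludarabine, ibrutinib and idelalisib. The share of all genes passing for all 3 was not counted. Of the 10 factors, PRDM1 was the 1 that passed for each drug. With fludarabine it rose in JVM2 from 53.6, 60.4 and 53.9 to 161, 158 and 159 CPM (1.49 ± 0.06, edgeR adjusted p = 8.17e-09) and fell in EHEB from 332, 300 and 284 to 196, 210 and 204 CPM (−0.55 ± 0.07, edgeR adjusted p = 6.27e-05). The MEC1 value was 0.66 ± 0.28, with 20.9, 22.1 and 17.3 CPM against 13.6, 13.8 and 10.3, and missed the threshold (edgeR adjusted p = 0.0796), which it passed in DESeq2, limma-voom and 5 other alternatives. The 3 groups of fludarabine libraries did not overlap their vehicle in any line.

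The inhibitors gave another order. In MEC1 PRDM1 fell to 3.03, 3.32 and 3.82 CPM with ibrutinib and 3.86, 3.81 and 1.36 with idelalisib, changes of −1.87 ± 0.30 (edgeR adjusted p = 0.000349) and −1.99 ± 0.30 (edgeR adjusted p = 0.000173). In JVM2 it rose with idelalisib to 73.0, 73.5 and 81.5 CPM (0.43 ± 0.06, edgeR adjusted p = 0.000109) and was at 57.5, 55.7 and 57.0 with ibrutinib (0.01 ± 0.06, not called). EHEB changed by −0.29 ± 0.07 with each inhibitor, and both EHEB calls were lost in the joint fit of 36 libraries (edgeR adjusted p = 0.276 and 0.238). The interaction gave edgeR adjusted p = 7.93e-08 for fludarabine, 3.92e-07 for ibrutinib and 3.62e-05 for idelalisib. Counts per gene do not separate PRDM1 isoforms from each start site, or spliced from unspliced XBP1.

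XBP1 was called once, with idelalisib in MEC1, where it went from 271, 270 and 309 to 372, 355 and 503 CPM (0.60 ± 0.20, edgeR adjusted p = 0.0214). The groups did not overlap, but without the third idelalisib library, the highest, the change was 0.41 (edgeR adjusted p = 0.119), and the call was also lost without the first or the second DMSO library and in the joint fit (edgeR adjusted p = 0.310). With fludarabine in EHEB the libraries held 55.0, 130 and 132.5 CPM against 374, 143.05 and 367 (−1.45 ± 0.53, edgeR adjusted p = 0.0514), and −1.78 without the second DMSO library (edgeR adjusted p = 0.0247). This change passed in DESeq2 (adjusted p = 0.0229), the joint fit (edgeR adjusted p = 0.00849), the fit of 6 libraries (edgeR adjusted p = 0.0456) and with counts divided by 8/3 (edgeR adjusted p = 0.0484). The other 7 values lay between −0.44 and 0.34.

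Ibrutinib and idelalisib libraries share a number series, so their direct comparison does not rest on DMSO. Idelalisib against ibrutinib gave 1 factor higher and 4 lower in MEC1 (6.01% and 9.37% of all genes), 3 higher and 1 lower in JVM2 (8.21% and 10.5%), and 3 higher and 1 lower in EHEB (6.77% and 9.09%). The MEC1 shares stand for 2694 genes, which became 1376 to 1663 without the first or the third library of either inhibitor. IRF4 was lower with idelalisib than ibrutinib in MEC1 (−0.58 ± 0.06, edgeR adjusted p = 0.000816). BACH2 was higher with idelalisib in JVM2 (1.60 ± 0.22, edgeR adjusted p = 0.000565) and EHEB (0.67 ± 0.16, edgeR adjusted p = 0.0151, lost with 3 of 6 libraries left out), and BCL6 was higher in EHEB (1.54 ± 0.28, edgeR adjusted p = 0.00346). POU2AF1 was higher with idelalisib in JVM2 (0.21 ± 0.04) and EHEB (0.45 ± 0.04) and lower in MEC1 (−0.26 ± 0.08), and PRDM1 was higher in JVM2 (0.43 ± 0.06). Of the MEC1 calls, all but that of IRF4 were lost with 3 or more of the 6 libraries left out in turn. In JVM2 EBF1 was lower (−0.23 ± 0.07), which passed with 1 of the 6 libraries left out, and in EHEB PAX5 was lower (−0.22 ± 0.05), which passed with 3 of them.

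The test of a line by drug interaction found 5 factors for each drug. Together 9 of the 10 factors passed for at least 1 drug, as did 62.1% of the 18305 genes tested for all 3. For fludarabine these were PAX5, EBF1, BCL6, PRDM1 and SPIB, where 39.1% of 19286 genes passed. For ibrutinib they were BACH2, BCL6, IRF8, PRDM1 and POU2AF1, where 33.6% of 18851 genes passed. For idelalisib they were EBF1, BACH2, IRF4, PRDM1 and POU2AF1, where 45.7% of 19081 genes passed.

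The balance between opposed factors was read within each library as a log2 ratio of counts per kb of exon. Such a ratio needs no scaling for depth, but it is imprecise where a factor has few counts. PRDM1 to PAX5 was −4.29 ± 0.13 in MEC1, −2.77 ± 0.11 in JVM2 and −0.25 ± 0.15 in EHEB with DMSO (SD, n = 3). With fludarabine it was −3.32 ± 0.21, −0.73 ± 0.07 and −0.42 ± 0.13, and the JVM2 mean lay nearest to that of EHEB. The 3 JVM2 fludarabine libraries, from −0.77 to −0.66, were still below the 3 of EHEB, from −0.54 to −0.28. With ibrutinib and idelalisib MEC1 stood at −6.43 ± 0.22 and −6.38 ± 0.90, below each of its DMSO libraries.

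PRDM1 to BCL6 differed by line as well. It was −0.11 ± 0.24 in MEC1, 7.24 ± 1.59 in JVM2 and 8.48 ± 0.41 in EHEB with DMSO. The JVM2 value rests on 3, 33 and 20 counts of BCL6, and its libraries gave 9.03, 6.03 and 6.65. In JVM2 and EHEB it dropped to 3.48 ± 0.18 and 5.62 ± 0.03 with fludarabine, whereas in MEC1 it was −0.07 ± 0.19, overlapping the DMSO libraries. With ibrutinib it was −0.93 ± 0.33 in MEC1 and 9.91 ± 0.25 in EHEB, and it could not be formed in JVM2, where BCL6 was at 0. The EHEB value rests on 12, 6 and 10 counts of BCL6.

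IRF4 to IRF8 was 2.06 ± 0.05 in MEC1, 5.02 ± 0.57 in JVM2 and 3.90 ± 0.44 in EHEB with DMSO. In MEC1 it was 1.58 ± 0.02 with fludarabine and 1.77 ± 0.11 with idelalisib, both below each DMSO library. XBP1 to PAX5 was 1.38 ± 0.22, −0.13 ± 0.67 and 0.73 ± 0.84 with DMSO in MEC1, JVM2 and EHEB. XBP1 to BACH2 in JVM2 was 7.68 ± 0.13 with DMSO and 5.94 ± 0.21 with idelalisib. These ratios are descriptions without a test.

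**Figure D4:**
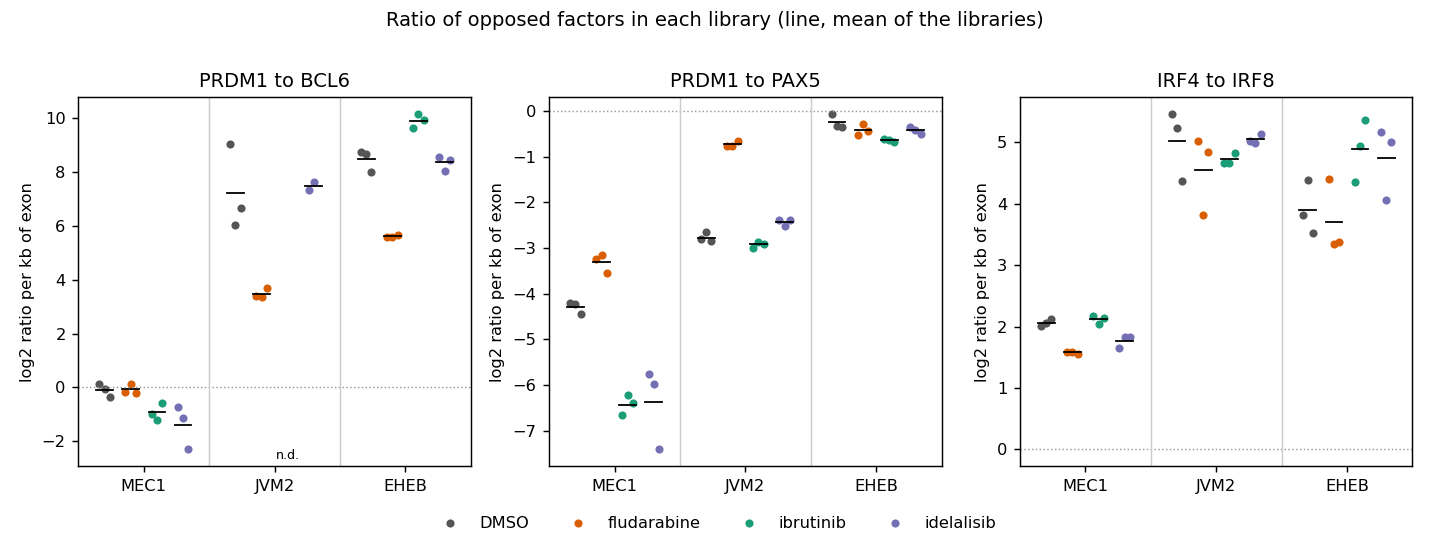
Log2 ratio of counts per kb of exon in each library for PRDM1 to BCL6, PRDM1 to PAX5 and IRF4 to IRF8, by line and treatment, with a line at the mean. PRDM1 to PAX5 is highest in EHEB and rises in JVM2 with fludarabine, and PRDM1 to BCL6 drops with fludarabine in JVM2 and EHEB. In JVM2 no ratio to BCL6 could be formed with ibrutinib (n.d.) and 1 idelalisib library is missing.

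Genes that PAX5 and EBF1 are known to activate were more often lower than higher with fludarabine and more often higher than lower with the inhibitors. Summed over the 3 fludarabine comparisons, 7 of 47 tests in this list of 16 genes were higher and 30 lower, and over the 6 inhibitor comparisons 46 of 94 were higher and 8 lower. In percent these were 14.9 higher and 63.8 lower with fludarabine, beside 21.2% and 21.7% of all genes, and 48.9 higher and 8.51 lower with the inhibitors, beside 18.5% and 19.7%. Without TMM the list had 11 higher and 24 lower, and 50 higher and 6 lower. The median log2 change of the list was −0.30, −0.37 and −0.70 with fludarabine in MEC1, JVM2 and EHEB, against 0.06, 0.06 and 0.02 over all genes. With ibrutinib it was 0.72, 0.38 and 0.09 and with idelalisib 0.70, 0.41 and 0.03.

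BLK, a kinase of the B-cell receptor, fell in the 3 fludarabine comparisons (−0.53 ± 0.06, −1.21 ± 0.05 and −1.70 ± 0.07 in MEC1, JVM2 and EHEB) and rose in the 6 with inhibitors. RASGRP3, a Ras activator downstream of the receptor, did the same, with values from −1.12 to 1.298. CIITA, the activator of MHC class II genes, was called higher in 7 of 9 and lower in none. PIK3AP1, the adaptor BCAP, fell in 7 of 9 and rose in 1.

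Plasma-cell genes were more often lower than higher with fludarabine, and with the inhibitors their direction differed between lines. The median log2 change of the list was −0.55, −0.44 and −0.83 with fludarabine in MEC1, JVM2 and EHEB. With ibrutinib it was 0.32, −0.0022 and −0.42 (all genes 0.06, −0.0014 and 0.01), and with idelalisib 0.50, 0.12 and −0.49 (all genes 0.08, 0.03 and 0.01). Over the fludarabine comparisons 8 of 45 tests were higher and 23 lower (17.8% and 51.1%, beside 21.2% and 21.7% of all genes), and over the inhibitors 32 of 90 were higher and 22 lower (35.6% and 24.4%, beside 18.5% and 19.7%). JCHAIN, the joining chain of polymeric immunoglobulin, fell with fludarabine from 711 to 23.4 CPM in EHEB (−4.90 ± 0.12), and its change was −2.25 ± 0.11 in JVM2 and −0.98 ± 0.12 in MEC1. CD38, a surface enzyme of plasma cells, rose in MEC1 and JVM2 with all 3 drugs and fell in EHEB with all 3, from 59.7 CPM with DMSO to 24.9 with fludarabine. SEC11C, a signal peptidase subunit, was higher in 7 of 9 comparisons and SLAMF7 in 6. SDC1, the plasma-cell antigen CD138, rose with fludarabine in EHEB (1.61 ± 0.12) and fell in 5 other comparisons.

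Secretory genes induced by XBP1 were more often lower than higher with the inhibitors. Over those comparisons 9 of 90 tests were higher and 33 lower (10.0% and 36.7%, beside 18.5% and 19.7% of all genes), and 15 and 29 without TMM. With fludarabine the balance depended on the scaling, since 7 of 45 were higher and 15 lower (15.6% and 33.3%, beside 21.2% and 21.7%) but 15 higher and 10 lower without TMM. SEC24D, a coat protein of vesicles leaving the endoplasmic reticulum, fell in 8 of 9 comparisons, by up to −1.25 ± 0.07, and DNAJC3, an endoplasmic reticulum chaperone, in 7. XBP1 itself, as given above, was called higher once and lower in none of these.

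Germinal-centre genes were not called in most tests. Of the list of 11, 3 of 27 tests were higher and 9 lower with fludarabine (11.1% and 33.3%, beside 21.2% and 21.7% of all genes), and 6 and 7 without TMM. With the inhibitors 15 of 54 were higher and 8 lower (27.8% and 14.8%, beside 18.5% and 19.7%). GCSAM fell in the 3 fludarabine comparisons, whereas RGS13 rose in 2 of them and fell in 1, and MYBL1 rose in 1. With the inhibitors GCSAM rose in 2 comparisons and fell in 2.

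Among genes with a mean of at least 1 CPM, those whose 12 group means were nearest to each wide-ranging factor were also looked up. For PRDM1 they were ACTN1 and POU3F1, with a root mean square difference of 0.46 and 0.61 in centred log2 CPM over a range of 6.78. The nearest to BACH2 were the protocadherins PCDHGA6 and PCDHGB3 (0.49 and 0.49, range 6.73), which belong to a cluster with shared exons, so that their counts are uncertain. For BCL6 they were ABCA1 and TNFRSF10D, at 0.93 and 1.23 over a range of 8.54, and so less close.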

How the data were processed

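RNA was sequenced from 36 libraries, 3 for each of 4 treatments in MEC1, JVM2 and EHEB, grouped by the labels. According to the methods and the submitters' notes, the authors depleted ribosomal RNA, trimmed reads with Trimmomatic, aligned them with HISAT2 2.1 to GRCh38 and deposited estimated counts per gene symbol from StringTie 1.3.4. Annotation release and strand setting: not given in the sources used here. Deposited values are whole numbers, and of 165640 values from 3 to 19, 55.2% stand at 7 steps (3, 6, 8, 11, 14, 16 and 19, 41.2% of the numbers), multiples of 8/3 rounded up, so that 1 read may be worth 8/3 counts. The limit for a group at 0 was set at 8 counts (3 reads at 8/3 counts each). An entry without a name held up to 0.00384% of counts and was left out.

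Counts were filtered (filterByExpr, minimum count 10, total 15), TMM scaled and tested with edgeR 4.0.16 in R 4.3.3 by quasi-likelihood F-tests with Benjamini-Hochberg adjustment over all genes. The drug effects were fitted within the 12 libraries of a line, the lines within the 9 DMSO libraries, and the line by drug interaction within the 18 libraries of a drug and DMSO. The SE is the log2 change divided by the square root of F. Levels per kb use the union of exons of GENCODE v44. DESeq2 1.42.0, limma-voom (limma 3.58.1), other scalings and filters, a joint fit, a fit of 6 libraries and each library left out were tried, and division of the counts by 8/3, and BACH2 ratios with each count taken as a read, were added after seeing the data. Scripts were tested on simulated counts. No replicates agreed within sampling noise (36 pairs, chi-square 27.2 to 53.6 times its degrees of freedom). The 10 genes and the gene lists were chosen with earlier results of these data known. Named genes were the 10 in every comparison, at most 4 of each list (those called in the most drug comparisons in 1 direction, ties by the largest smallest change, beside any needed to say which members moved) and, for the 3 factors with the widest range of group means, the 2 genes nearest in centred log2 CPM (prior count 2). Others were chosen after their values were seen. Single genes of the lists that are not reported here were left in the list counts.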

Additional observations from a re-analysis of the deposited data

Results flagged for a closer look

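The response of 9 of the 10 factors differed between MEC1, JVM2 and EHEB for at least 1 drug by the edgeR interaction test, as did 62.1% of the 18305 genes tested for all 3 drugs. Of the 9, PAX5, SPIB and IRF8 entered through 1 call each, which depended on single libraries. In these differences the line cannot be told apart from its exposure time, and for the inhibitors the library number series cannot be told apart from the drug. The sizes below are the range of the 3 log2 changes.

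With fludarabine, BCL6 differed most, by 4.09 (edgeR adjusted p = 1.31e-05), from 0.63 in MEC1 to 4.72 in JVM2. PRDM1 differed by 2.04 (edgeR adjusted p = 7.93e-08) and took opposite directions in JVM2 and EHEB. EBF1 differed by 0.868 (edgeR adjusted p = 2.09e-05), all 3 values being below 0. SPIB differed by 1.55 (edgeR adjusted p = 0.0469), which was lost in 14 of 18 fits with a library left out. PAX5 differed by 0.243 (edgeR adjusted p = 0.0201), lost in 2 of 18 such fits.

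With ibrutinib, BACH2 differed by 3.32 (edgeR adjusted p = 0.00365), where the MEC1 value rests on 9 counts with DMSO. PRDM1 differed by 1.87 (edgeR adjusted p = 3.92e-07) and BCL6 by 1.83 (edgeR adjusted p = 0.00591), the latter with JVM2 taken at its bound. IRF8 differed by 1.38 (edgeR adjusted p = 0.0275), lost in 7 of 18 fits with a library left out. POU2AF1 differed by 0.436 (edgeR adjusted p = 0.00681), all 3 values being above 0.

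With idelalisib, BACH2 differed by 2.95 (edgeR adjusted p = 0.000612), where the MEC1 value again rests on 9 counts with DMSO. PRDM1 differed by 2.43 (edgeR adjusted p = 3.62e-05) and IRF4 by 0.881 (edgeR adjusted p = 7.96e-08), both with opposite directions in MEC1 and JVM2. POU2AF1 differed by 0.575 (edgeR adjusted p = 1.41e-05) and EBF1 by 0.43 (edgeR adjusted p = 0.00149).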

How the results depend on the processing

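Of 150 signed results of the factors, 22 changed sign under some alternative and 0 of these were called. Where a value or count moved, the cause was not tested. No paired analysis was possible because the groups share no replicate numbers.

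Without TMM the sign turned for XBP1 with fludarabine in JVM2 (0.056), EBF1 with ibrutinib in JVM2 (0.045), XBP1 with ibrutinib in EHEB (0.083), and XBP1 (0.043) and SPIB (0.12) in DMSO-treated MEC1 against EHEB. With a mean CPM of at least 5 it turned for PAX5 (0.087) and IRF8 (0.046) with idelalisib in MEC1, XBP1 with ibrutinib in EHEB (0.012) and SPIB in MEC1 against EHEB (0.00015). Counts divided by 8/3 gave 0.0048 for PAX5 with idelalisib in MEC1 and 0.0022 for XBP1 with ibrutinib in EHEB, and the fit of 6 libraries gave 0.0050 for the latter. DESeq2 (−0.00044) and no filter (−0.00029) turned PRDM1 with ibrutinib in JVM2. In limma-voom PRDM1 in EHEB with idelalisib against ibrutinib was −0.00056, and XBP1 and SPIB in MEC1 against EHEB were 0.041 and 0.047, the joint fit giving 0.019 for SPIB.

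With single libraries left out, the values that changed sign ranged as follows. BACH2 was −0.76 to 0.86 with fludarabine in MEC1 and −0.014 to 0.52 in MEC1 with idelalisib against ibrutinib. PAX5 was −0.090 to 0.00070 with idelalisib in MEC1, EBF1 −0.077 to 0.029 with ibrutinib in JVM2, and BCL6 −0.36 to 0.065 with idelalisib in EHEB. XBP1 was −0.42 to 0.20, −0.092 to 0.53 and −0.075 to 0.55 with fludarabine, ibrutinib and idelalisib in JVM2, −0.33 to 0.35 and −0.62 to 0.11 with ibrutinib and idelalisib in EHEB, −0.22 to 0.13 and −0.62 to 0.12 for idelalisib against ibrutinib in JVM2 and EHEB, and −0.41 to 0.12 in MEC1 against EHEB. SPIB was −0.61 to 0.13 with ibrutinib in EHEB and −0.23 to 0.32 in MEC1 against EHEB. IRF8 was −0.85 to 0.0042 with fludarabine in JVM2 and −0.42 to 0.34 for idelalisib against ibrutinib in EHEB. PRDM1 was −0.032 to 0.066 with ibrutinib in JVM2, and −0.37 to 0.20 and −0.032 to 0.063 for idelalisib against ibrutinib in MEC1 and EHEB. IRF4 was −0.023 to 0.075 in EHEB against JVM2.

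The number of factors called was 3 instead of 5 with ibrutinib in JVM2 (limma-voom, fit of 6 libraries) and in EHEB (joint fit), and 1 instead of 3 with idelalisib in EHEB (joint fit). For idelalisib against ibrutinib it was 1 instead of 5 in MEC1 without the filter and in the fit of 6 libraries, 3 in the joint fit, and 2 instead of 4 in EHEB (joint fit). The fludarabine interaction had 3 instead of 5 without the filter. With a library left out these counts ranged from 5 to 8 and 2 to 5 with ibrutinib in MEC1 and JVM2, 3 to 4 in EHEB, 1 to 5 and 2 to 5 for idelalisib against ibrutinib in MEC1 and EHEB, and 3 to 6 for the fludarabine interaction. Over all genes, idelalisib against ibrutinib in MEC1 gave 4345 calls without TMM, 1504 in the fit of 6 libraries and 1376 to 1663 without the first or the third library of either inhibitor, against 2694. The depth limits BACH2 in MEC1 and BCL6 in JVM2 and in ibrutinib-treated EHEB.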

Other observations

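Other B-lineage transcription factors also moved. Over the 3 fludarabine comparisons 16 of 68 tests were higher and 24 lower (23.5% and 35.3%, beside 21.2% and 21.7% of all genes), and without TMM the balance turned to 23 higher and 15 lower. Over the 6 inhibitor comparisons 42 of 136 were higher and 24 lower (30.9% and 17.6%, beside 18.5% and 19.7%). FOXP1, a forkhead factor of B cells, rose in JVM2 from 0.284 CPM with DMSO to 5.09 with fludarabine and 3.38 with idelalisib, and in EHEB from 4.92 to 7.61 and 11.2 CPM. In MEC1 FOXP1 averaged 0.0309 CPM with DMSO and 1.63, 1.38 and 1.34 CPM with fludarabine, ibrutinib and idelalisib, and no fold is given against so few reads. FOXO1, a forkhead factor restrained by PI3K signalling, fell in 6 of 9 comparisons, by −1.17 ± 0.06 with idelalisib in MEC1. KLF2, a quiescence factor, rose with idelalisib in each line (1.51 ± 0.13, 2.25 ± 0.22 and 1.41 ± 0.19 in MEC1, JVM2 and EHEB) and fell with fludarabine in EHEB (−2.45 ± 0.22).

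Among partners and cofactors of the 10 factors, 15 of 60 tests were higher and 29 lower with fludarabine (25% and 48.3%, beside 21.2% and 21.7% of all genes), and without TMM the balance turned to 20 higher and 10 lower. With the inhibitors 19 of 120 were higher and 43 lower (15.8% and 35.8%, beside 18.5% and 19.7%), and 32 and 39 without TMM. JUNB, an AP-1 subunit, rose with fludarabine in each line (0.79, 0.40 and 0.24 in MEC1, JVM2 and EHEB) and fell in the 6 inhibitor comparisons, by −0.26 to −0.96. TLE4, a corepressor of the Groucho family, rose in 7 of 9 comparisons and fell in none, and KDM1A, a histone demethylase, fell in 7 and rose in none. Without TMM the list had 8 calls instead of 15 with fludarabine in MEC1, 8 instead of 17 in JVM2, 11 instead of 7 with ibrutinib in JVM2 and 12 instead of 7 with idelalisib in EHEB.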
